A study of Mus musculus with 28 samples.

Results

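The genes described here were 47 genes of mitosis, taken by name from the 24089 genes of the RNA-seq table. They encode the CDK1 switch that drives entry into mitosis, the kinases and proteins of the spindle, the spindle checkpoint, the anaphase-promoting complex (APC/C) and its partners, the chromosomal passenger complex, the centromere and kinetochore, mitotic kinesins, the machinery of cytokinesis, and proteins of mitotic chromosome structure. All 47 had a mean of at least 1 RPKM (reads scaled for gene length and library size) over the 24 libraries and so were among the 9726 genes tested.

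The RNA came from naive CD4+ CD62L+ T cells of spleen and lymph nodes, stimulated through CD3 and CD28 and cultured without added cytokine (control), with either TGF-β or IL-4, or with TGF-β + IL-4, the cytokines that together direct CD4+ T cells to the IL-9 producing Th9 fate. All mice carried Tgfbr1 f/f and ERt2-cre+ on a C57BL/6 background, so that tamoxifen deletes the floxed type I TGF-β receptor in every cell type in which the Cre is active. Mice given oil were WT and mice given tamoxifen were KO, and the effect of tamoxifen itself and that of the deletion cannot be told apart. Each genotype and culture had 3 libraries, made by Smart-seq2 and numbered as replicates 1 to 3. The sources used here do not say whether a number stands for the same mouse in every culture or that the replicates were separate animals, so p-values measure the spread between these samples, which may be technical. The study used young adult mice of both sexes, while the sex of the mice behind each library and the culture time of the RNA-seq cells are not given in the sources used here. DNase-seq, which maps open chromatin as DNase I hypersensitive sites (DHSs), was done on the control and the TGF-β + IL-4 cultures of both genotypes, with 1 library of each, labelled as replicate 3 of its genotype.

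A T cell that has been activated leaves quiescence and divides. Mitosis genes are transcribed late in the cycle: the DREAM complex holds them down in quiescent and early cycling cells through cell cycle homology elements in their promoters, and the MYBL2 and FOXM1 complexes and the factor NF-Y, which binds CCAAT boxes, switch them on from the G2 phase. Their messages are therefore a common readout of how many cells of a culture are dividing. In bulk RNA a lower level can come from fewer dividing cells or from less RNA per cell, and these cannot be told apart. TGF-β is known for restraining T cell proliferation, and IL-4 for sustaining T cell growth.

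To show what these promoters hold, sequence just before the RefSeq start was printed for members whose RNA differed widely between WT and KO cells in TGF-β + IL-4 (Cdk1, Ccnb1, Plk1, Cdca8, Kif23) and for the pair whose RNA differed least (Cks2, Nusap1). Each line gives 150 bases up to the start, 5′ to 3′ on the strand of the gene, in build GRCm38.p6. Capitals mark the motifs searched on both strands: the NF-Y box CCAAT, which reads ATTGG on the other strand, and the cell cycle homology element, taken as TTTGAA or TTCGAA, of which the first reads TTCAAA on the other strand. A CCAAT box and an element can share at most 1 base.
Cdk1, chr10:69352913-69353062 (minus strand): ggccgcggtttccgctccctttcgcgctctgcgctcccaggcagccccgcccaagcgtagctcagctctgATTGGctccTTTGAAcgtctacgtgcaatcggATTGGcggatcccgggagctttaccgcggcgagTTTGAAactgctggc
Ccnb1, chr13:100786487-100786636 (minus strand): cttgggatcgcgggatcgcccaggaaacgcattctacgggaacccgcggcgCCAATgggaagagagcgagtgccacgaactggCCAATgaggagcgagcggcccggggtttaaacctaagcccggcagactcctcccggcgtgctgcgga
Plk1, chr7:122159285-122159434 (plus strand): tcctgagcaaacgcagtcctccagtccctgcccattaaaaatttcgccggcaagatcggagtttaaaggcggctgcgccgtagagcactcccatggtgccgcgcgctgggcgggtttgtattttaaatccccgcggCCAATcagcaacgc
Cdca8, chr4:124936918-124937067 (minus strand): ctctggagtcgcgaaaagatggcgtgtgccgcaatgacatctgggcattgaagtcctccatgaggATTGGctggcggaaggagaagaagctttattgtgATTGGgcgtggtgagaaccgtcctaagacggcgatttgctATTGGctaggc
Kif23, chr9:61946800-61946949 (minus strand): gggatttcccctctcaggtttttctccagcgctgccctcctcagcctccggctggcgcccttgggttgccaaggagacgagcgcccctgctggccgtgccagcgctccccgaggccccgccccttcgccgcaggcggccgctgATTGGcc
Cks2, chr13:51645082-51645231 (plus strand): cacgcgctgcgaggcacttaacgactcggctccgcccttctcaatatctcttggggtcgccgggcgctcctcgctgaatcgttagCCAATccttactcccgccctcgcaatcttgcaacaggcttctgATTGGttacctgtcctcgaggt
Nusap1, chr2:119618148-119618297 (plus strand): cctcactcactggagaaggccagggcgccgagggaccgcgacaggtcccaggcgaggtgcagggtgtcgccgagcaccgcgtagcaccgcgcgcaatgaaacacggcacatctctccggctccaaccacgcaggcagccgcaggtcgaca

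The stretch of Cdk1, the kinase that starts mitosis, held 2 CCAAT boxes and 2 homology elements. That of Ccnb1, its cyclin partner, held 2 CCAAT boxes, and that of Cdca8, a subunit of the passenger complex, held 3. Plk1 and Kif23 had 1 CCAAT box each. Cks2, a small CDK binding protein, had 2 CCAAT boxes although its RNA hardly differed between genotypes, and the Nusap1 stretch held neither motif. Over windows of 300 bases (250 before and 50 after the start), 39 of the 47 members were found in the RefSeq table, with 41 windows. Aurkb, Ccna2, Cdc25c, Cdca2, Dlgap5, Kif20a, Smc4 and Tpx2 were not matched. The windows reach further than the printed stretches. Those of Plk1, Kif23 and Cdca8 held 1 homology element each, and those of Cdca8 and Cks2 held 4 CCAAT boxes each. At least 1 CCAAT box stood in 78.0% of the member windows, in 38.5% of the windows of all genes tested and in 37.4% of all 32851 promoter windows. At least 2 boxes stood in 56.1% of member windows, against 14.9% and 11.7%. A homology element stood in 75.6% of them, against 14.2% and 19.2%, and CCAAT together with an element in 65.9%, against 5.86% and 7.53%. Within the members, a CCAAT box and an element occurred together in 64.0% of 25 windows of those called higher in KO cells in TGF-β + IL-4. The share was 68.8% in 16 windows of the other members. That split follows the thresholds for a call, since all 47 differences in this comparison were above 0, and it was not tested. Of the unmatched members, Aurkb, Ccna2, Cdc25c, Kif20a and Tpx2 were called and are missing from it. A match of letters is a description of the window and not a sign of binding.

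**Figure D1:**
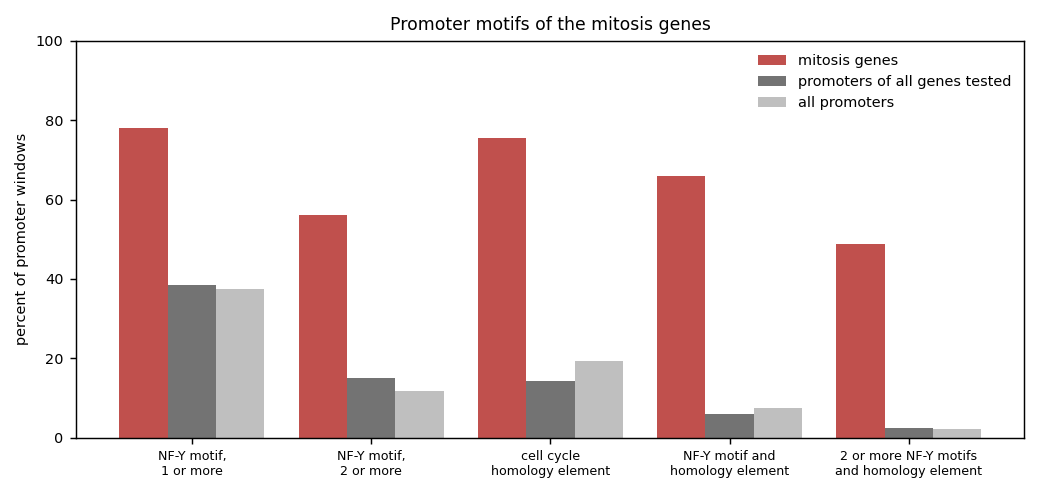
Share of promoter windows of 300 bases (y axis, percent) that held each motif or combination (x axis), for windows of the mitosis genes (red), of all genes tested (dark grey) and of all RefSeq promoters (light grey), with 1 value per bar and no error. CCAAT (the NF-Y motif) and a homology element occurred together in 65.9% of member windows and 5.86% of the windows of all genes tested.

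The headings of the RNA-seq table conflict with the read counts that the study lists elsewhere for 8 of the 12 WT libraries (replicates 1 and 3). When the genes listed at 0 were compared, each of those 8 libraries matched the column at its place in library-number order, with 99.85% to 99.95% of genes agreeing, while the next best column reached at most 85.79%. The heading named the right library for only 2 of the 8. Columns were therefore read by position, as WT then KO, replicate by replicate, with the control, the TGF-β, the IL-4 and then the combined culture in turn within each replicate number. This reading moves 20 of 24 columns, and for 16 of the libraries (the 4 of WT replicate 2 and all 12 of KO) it rests on the pattern alone. It never moves a column between WT and KO. Under the headings none of the 9726 genes was called by limma in any comparison of cultures, at the thresholds given below (85 to 1096 genes at an unadjusted p under 0.05, and 0 to 6 of the members), and between KO and WT only the TGF-β culture called members, 6 in number, of which Bub1 and Cenpa were also called by position. Every other value holds for the reading by position.

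Tgfbr1, the targeted gene, followed the labels by this reading where its message was high. In WT it was 3.02, 3.25 and 3.31 RPKM in control (replicates 1, 2 and 3) and 17.6, 19.5 and 20.7 RPKM in TGF-β + IL-4. KO libraries in TGF-β + IL-4 held 3.45, 5.18 and 3.35 RPKM, 2.04 lower on the log2 scale (limma, BH adjusted p = 1.17e-11), whereas the control cultures differed by -0.21 (adjusted p = 0.225). Il9, the gene of IL-9, was 9.93, 10.9 and 8.15 RPKM in WT control and 45.9, 45.2 and 40.1 RPKM in TGF-β alone. In WT TGF-β + IL-4 it was 36.1, 33.6 and 34.05 RPKM. The paper, by contrast, states that T cells do not transcribe Il9 with either cytokine by itself. The 6 measured T cell markers were Cd3d, Cd3e, Cd3g, Cd4, Cd28 and Lck. They summed to between 1071 and 1469 RPKM in WT and between 1035 and 1291 RPKM in KO libraries. Cd4 itself was 75.6 to 98.3 RPKM in WT and 93.2 to 122 RPKM in KO, and Lck was 303 to 463 RPKM and 253 to 349 RPKM. Total read numbers are unknown. Relative depth, from the steps between low values, ran from 0.794 to 1.66 of a reference library. Over the 24 libraries it had a Pearson correlation of 0.02 with the mean level of the 47 genes. Within WT, however, TGF-β + IL-4 had the lowest depth at each replicate number (0.946, 0.826 and 1, against 1.38, 1.26 and 1.43 in control). In KO TGF-β + IL-4 it was 1.23, 0.794 and 1.32. The part of depth in the differences between cultures and genotypes was not tested.

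All tests were limma fits to log2(RPKM + 1) over the 9726 genes, with Benjamini-Hochberg (BH) adjustment over all of them. Fold changes are on that scale, which understates changes of genes near 1 RPKM. A gene is said to be called, to have risen or to have fallen, when its adjusted p was under 0.01 and its fold change over 1.5. There were n = 3 replicates in each group. Culture comparisons within a genotype share groups, so they are not independent of each other.

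The mitosis genes lay lowest in WT cells cultured with TGF-β + IL-4. The mean of log2(RPKM + 1) over the 47 genes was 4.10 ± 0.01 in WT control, 4.07 ± 0.09 in TGF-β, 4.29 ± 0.11 in IL-4 and 3.83 ± 0.08 in TGF-β + IL-4 (SD, n = 3). In KO cells it was 4.33 ± 0.07, 4.42 ± 0.12, 4.45 ± 0.08 and 4.42 ± 0.09 in the same order. Thus the 4 KO cultures differed by about as much as the spread between replicates. Even so, KO control was the lowest KO culture at each replicate number (4.37, 4.38 and 4.25). Replicate 3 was the lowest library of every KO culture, so part of that spread went with the replicate number. Each KO culture mean lay above the mean of every WT culture, although the highest WT library, IL-4 replicate 3, reached 4.42 and overlapped the KO range. Of the 47 genes, 30 were lowest in TGF-β + IL-4 among the 4 WT cultures at each of the 3 replicate numbers (14.8% of all genes tested), and 26 were highest in IL-4 at each number (8.7%). In KO cells none was lowest in TGF-β + IL-4 at each number (2.54%), and 12 were lowest in control (4.17%).

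**Figure D2:**
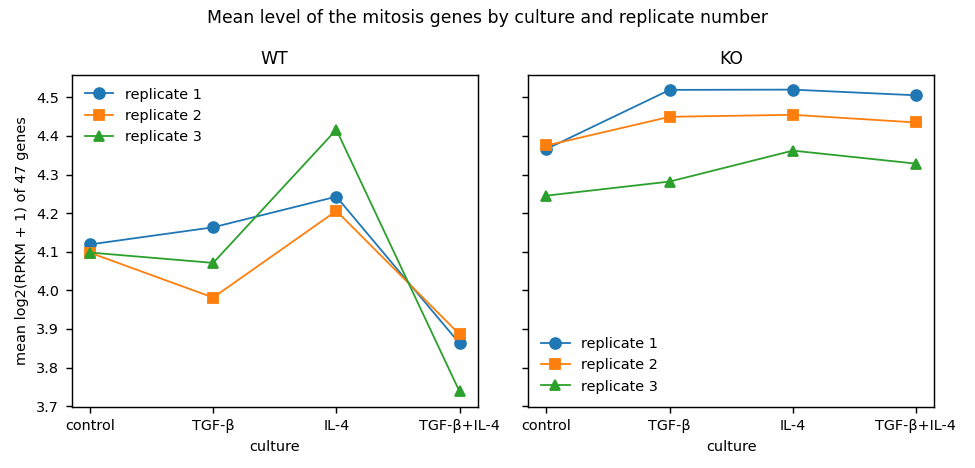
Mean log2(RPKM + 1) over the 47 mitosis genes (y axis) in each culture (x axis) for WT (left) and KO (right), with 1 line per replicate number. In WT all 3 lines were lowest in TGF-β + IL-4, where the mean was 3.83, whereas the KO means stayed between 4.33 and 4.45.

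**Figure D3:**
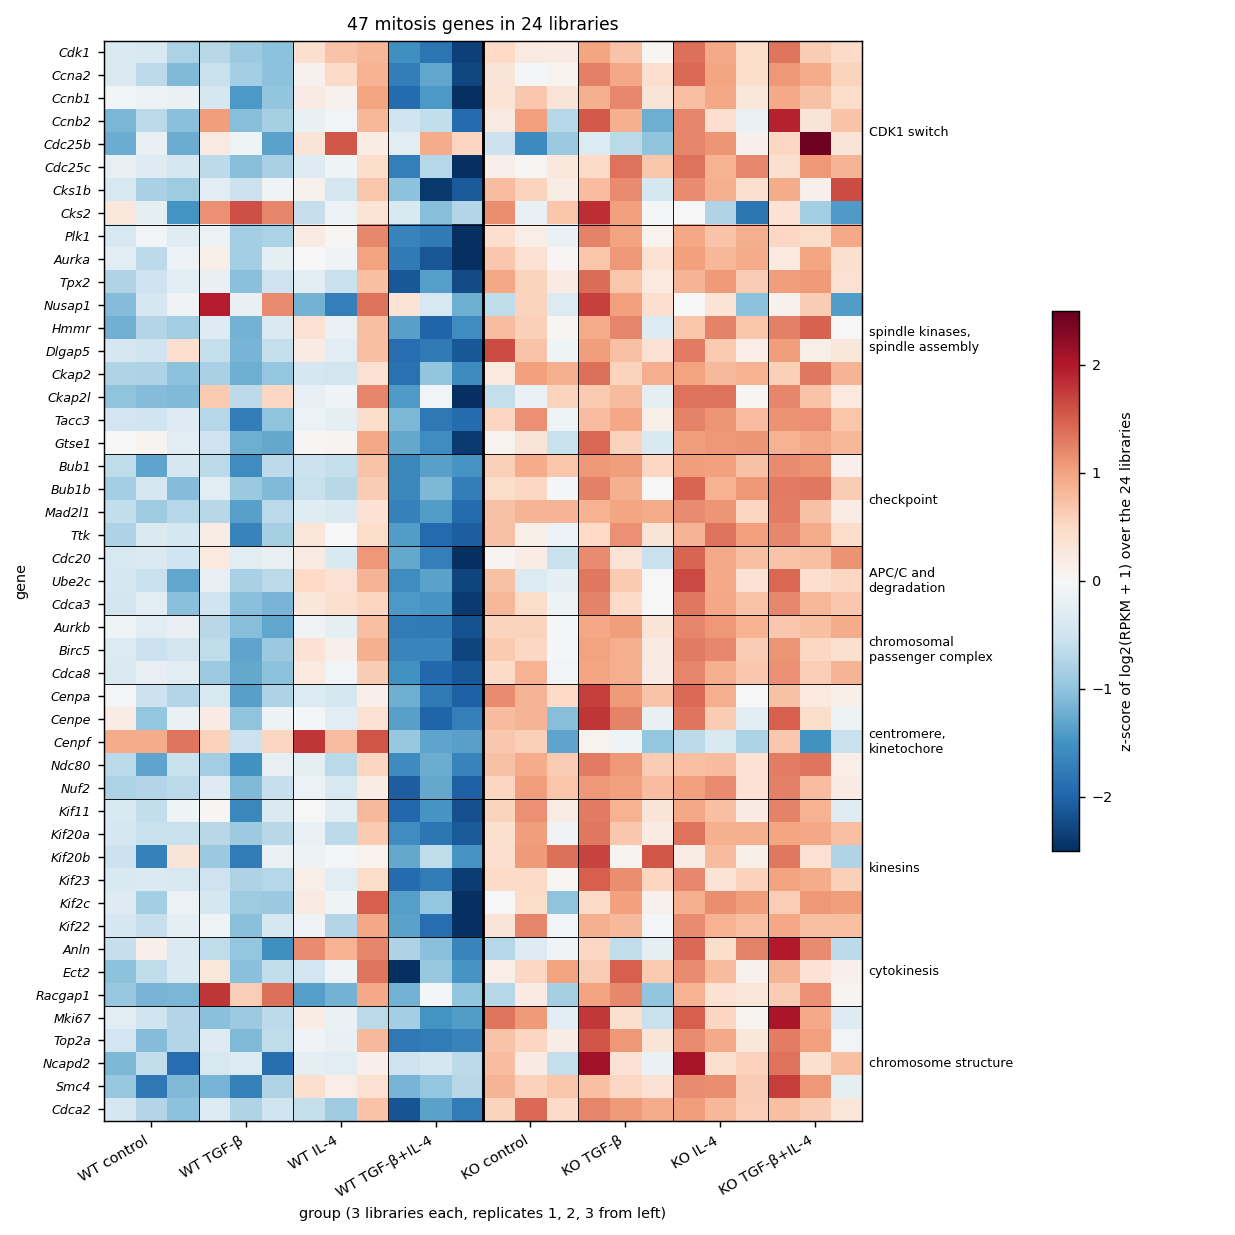
Level of each of the 47 mitosis genes (rows, grouped by role) in each of the 24 libraries (columns, 3 replicates per group), as z-scores of log2(RPKM + 1) over the libraries, with blue below and red above the gene's mean. The WT TGF-β + IL-4 columns are the bluest for most rows, and Cks2, Nusap1, Cdc25b, Racgap1 and Cenpf depart from the common pattern.

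Levels differed widely among the members. Averaged over the 24 libraries, the most abundant messages per length were those of the CDK binding proteins Cks1b (199 RPKM) and Cks2 (152 RPKM), the passenger subunit Birc5 (114 RPKM) and the APC/C ubiquitin-conjugating enzyme Ube2c (79.5 RPKM). The lowest were the kinetochore motor Cenpe (2.20 RPKM) and the cytokinesis scaffold Anln (1.66 RPKM).

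In the CDK1 switch, Cdk1 and Ccnb1 had their highest WT levels in IL-4 and their lowest in TGF-β + IL-4. Cdk1 was 39.2, 38.9 and 35.6 RPKM in WT control, 36.5, 34.8 and 33.8 RPKM in TGF-β, 46.2, 49.6 and 50.8 RPKM in IL-4, and 30.2, 28.3 and 25.3 RPKM in TGF-β + IL-4. The 4 groups did not overlap except control with TGF-β. Ccnb1, cyclin B1, was 33.9, 33.3 and 33.1 RPKM in control, 36.4, 35.5 and 44.5 RPKM in IL-4, and 21, 23.9 and 17.6 RPKM in TGF-β + IL-4, with no overlap between those groups. Ccnb1 in TGF-β alone (31.1, 23.9 and 26.8 RPKM) lay below every control library but touched the TGF-β + IL-4 range. Cks1b stayed within 165 to 210 RPKM in all 12 WT libraries.

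Of the spindle genes, the mitotic kinase Plk1 was 29.1, 28.2 and 36.0 RPKM in WT IL-4 and 19.6, 19.1 and 15.4 RPKM in TGF-β + IL-4, without overlap. The passenger complex corrects faulty attachments of chromosomes to the spindle, and its kinase Aurkb was 56.1, 53.8 and 54.7 RPKM in control, 48.3, 44.0 and 41.5 RPKM in TGF-β, 56.2, 54.3 and 69.2 RPKM in IL-4, and 37.1, 37.0 and 33.3 RPKM in TGF-β + IL-4. Every TGF-β + IL-4 library lay below every library of the other WT cultures. Its partner Birc5, survivin, went from 121, 115 and 136 RPKM in IL-4 to 77.2, 77.3 and 67.0 RPKM in TGF-β + IL-4. The checkpoint kinase Bub1 was 6.79, 6.69 and 9.57 RPKM in IL-4 and 5.01, 5.40 and 5.22 RPKM in TGF-β + IL-4, and Cdc20, which activates the APC/C, was 55.6, 51.0 and 62.8 RPKM against 44.8, 42.05 and 35.4 RPKM. Both pairs of groups stood apart. Of the structural genes, Top2a, which untangles sister chromatids, was 48.7, 48.0 and 56.5 RPKM in IL-4 and 36.6, 36.9 and 37.4 RPKM in TGF-β + IL-4. Mki67, which coats mitotic chromosomes and is the usual stain for dividing cells, was low in RPKM and shifted less, from 3.19, 2.92 and 2.53 RPKM to 2.41, 1.999 and 2.06 RPKM.

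**Figure D4:**
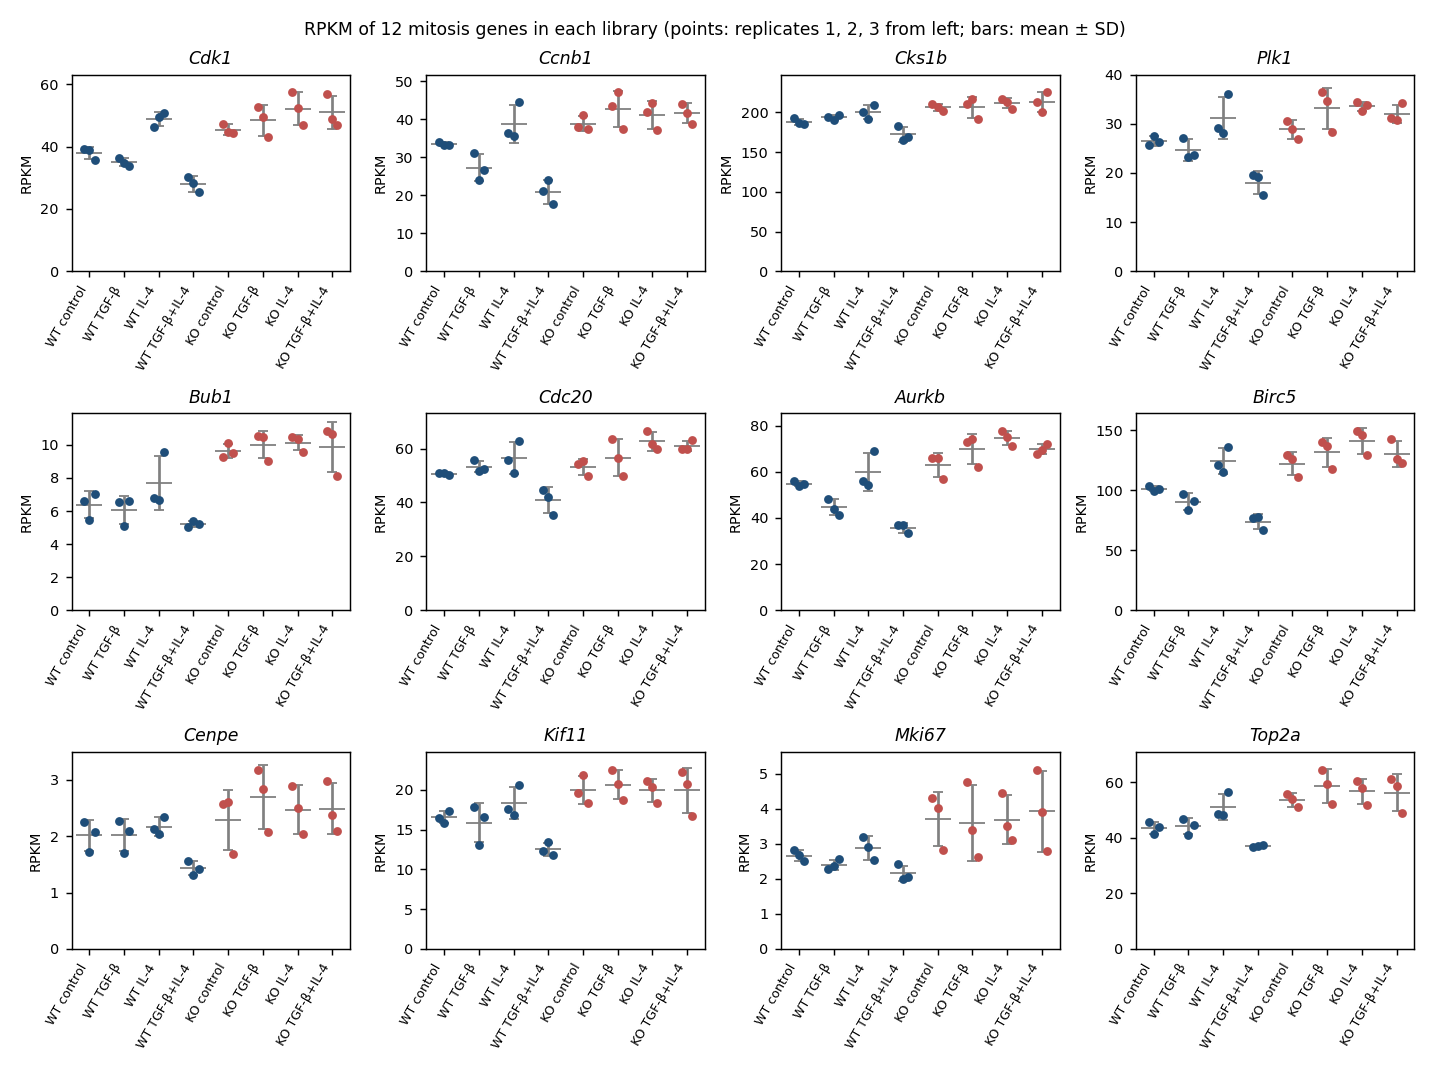
RPKM (y axis, from 0) of 12 mitosis genes that cover the role groups, in the 8 groups (x axis), with 1 point per replicate and bars for mean ± SD (n = 3). For Aurkb the WT TGF-β + IL-4 points lie at 33.3 to 37.1 RPKM, and the KO points of the same culture at 68.0 to 72.2 RPKM.

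IL-4 and TGF-β alone called no member in WT cells. With IL-4 against control, all 47 log2 differences were above 0, with a median of 0.17, against 0.01 over all genes tested. None of the 47 was called by limma (all genes: 0.915% higher, 0.391% lower), and 19 had an unadjusted p under 0.05. The largest differences were those of Ube2c (0.47 ± 0.14 (SE), BH adjusted p = 0.0446), the CDK phosphatase Cdc25b (0.40 ± 0.14, adjusted p = 0.109) and cyclin A2, Ccna2 (0.38 ± 0.09, adjusted p = 0.013). In 24 of 47 the 3 IL-4 libraries lay above the 3 control libraries, compared with 12.9% of all genes. With TGF-β against control the median was -0.04, 28 differences were below 0, none was called by limma (3.09% higher and 2.3% lower among all genes), and 8 had an unadjusted p under 0.05. Here Aurkb (-0.30 ± 0.08, BH adjusted p = 0.0148), Ccnb1 (-0.29 ± 0.11, adjusted p = 0.0615) and Cenpf (-0.26 ± 0.15, adjusted p = 0.272) had the lowest values, and Racgap1, a regulator of cytokinesis (0.29 ± 0.07, adjusted p = 0.00782), Nusap1 (0.27 ± 0.13, adjusted p = 0.159) and Cks2 (0.27 ± 0.08, adjusted p = 0.0238) the highest.

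With TGF-β + IL-4 against control, 42 of 47 differences were below 0 and the median was -0.31, against 0.02 over all genes tested. Only 3 members fell past both thresholds (all genes: 2.53% lower, 5.93% higher), namely Cenpf, a kinetochore protein (-0.68 ± 0.15, BH adjusted p = 0.00136), Ccnb1 (-0.67 ± 0.11, adjusted p = 5.82e-05) and Aurkb (-0.60 ± 0.08, adjusted p = 9.52e-06). A further 21 had an adjusted p under 0.01 with a fold change under 1.5. In 35 of 47 every TGF-β + IL-4 library lay below every control library (24.1% of all genes). Smc4 and Ncapd2, condensin subunits, and Cdc25b were the highest, at 0.06 ± 0.07, 0.14 ± 0.12 and 0.32 ± 0.14, and none of these was called. Without WT replicate 3 no member was called (Ccnb1 -0.56, Aurkb -0.56), and Cenpf also lost its call without WT replicate 1 and without WT replicate 2 (adjusted p = 0.0127 and 0.0119).

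The same TGF-β + IL-4 libraries set against IL-4 gave the largest fall within WT cells. The median of the 47 differences was -0.46, against 0.01 over all genes tested, and 46 were below 0. In 42 of 47 every TGF-β + IL-4 library lay under every IL-4 library (26.7% of all genes), the exceptions being Cdc25b, Ckap2l, Cks2, Nusap1 and Racgap1. The 13 that fell (2.92% of all genes lower, 5.62% higher) included all 3 of the passenger complex, 2 of 3 of the APC/C group, 3 of 8 of the CDK1 switch, 2 of 6 kinesins, 2 of 10 spindle genes and 1 of 5 of the centromere group. None of the 4 checkpoint genes, the 5 structural genes or the 3 genes listed under cytokinesis was called, although checkpoint differences ran from -0.57 (Ttk) to -0.27 (Bub1b). Kif23, which acts in cytokinesis, was called but is counted with the kinesins.

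Ccnb1 (-0.87 ± 0.11, BH adjusted p = 2.38e-06), Ube2c (-0.82 ± 0.14, adjusted p = 7.64e-05) and Cdk1 (-0.79 ± 0.08, adjusted p = 2.99e-07) fell most. Ube2c held 87.3, 84.6 and 95.6 RPKM in IL-4 and 52.4, 55.1 and 43.5 RPKM in TGF-β + IL-4, again without overlap. Plk1 fell by 0.75 ± 0.10, Birc5 by 0.74 ± 0.09, the cytokinetic kinesin Kif23 by 0.74 ± 0.09 and Aurkb by 0.72 ± 0.08 on the log2 scale. Among the lead genes that were not called, Kif11, the motor that separates spindle poles, differed by -0.52 ± 0.11, Bub1 by -0.47 ± 0.12, Cdc20 by -0.46 ± 0.09, Top2a by -0.45 ± 0.09, Cenpe by -0.38 ± 0.13, Mki67 by -0.30 ± 0.16 and Cks1b by -0.22 ± 0.05. At the other end were Cdc25b (-0.07 ± 0.14), Racgap1 (-0.02 ± 0.07) and Nusap1 (0.02 ± 0.13). Birc5, Ccnb1, Cdca3, Cdk1, Kif23 and Ube2c were called whichever replicate was left out. The other 7 were not called without WT replicate 3 (6 called in all), Cenpf also not without WT replicate 1, and 18 were called without WT replicate 2, when only WT libraries identified by their counts remained. Against TGF-β alone the median was -0.27, 44 differences were below 0, and limma called none (all genes: 2.06% higher, 0.236% lower), with 33 at an unadjusted p under 0.05 and Aurka, a spindle pole kinase, the lowest at -0.50 ± 0.08 (BH adjusted p = 0.00025).

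In KO cells the cultures differed little in the mitosis genes. The median differences from KO control were 0.08 with TGF-β, 0.11 with IL-4 and 0.09 with TGF-β + IL-4. No member was called by limma in any of the 3 (all genes, higher and lower: 0.0617% and 0% with TGF-β, 1.63% and 1.02% with IL-4, 1.94% and 0.915% with TGF-β + IL-4), and 2, 15 and 8 had an unadjusted p under 0.05. Cdk1 was 47.4, 44.6 and 44.3 RPKM in KO control, 52.7, 49.6 and 43.0 RPKM in TGF-β, 57.4, 52.3 and 46.9 RPKM in IL-4, and 57.0, 48.9 and 47.1 RPKM in TGF-β + IL-4. The ranges of all 4 overlapped. Ccnb1 lay between 37.2 and 47.05 RPKM in all 12 KO libraries. The largest difference with TGF-β + IL-4 was that of Cdc25b, 0.53 ± 0.14 (BH adjusted p = 0.0131), and in 10 of 47 every TGF-β + IL-4 library lay above every control library (13.2% of all genes).

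The genotypes were then compared within each culture. In TGF-β + IL-4 all 47 log2 differences were above 0, the median was 0.62 (0.01 over all genes tested), and 29 of 47 rose in KO against WT, while none fell. Among all genes, 3.11% were called higher and 6.06% lower in this comparison. In 42 of 47 the 3 KO libraries lay above the 3 WT libraries (27.2% of all genes), the exceptions being Cdc25b, Cenpf, Cks2, Kif20b and Nusap1. A further 10 members had an adjusted p under 0.01 with a fold change under 1.5.

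By role, all 3 of the passenger complex rose (median 0.81), as did 2 of 3 of the APC/C group (0.90), 5 of 6 kinesins (0.66), 3 of 4 checkpoint genes (0.69), 7 of 10 spindle genes (0.62), 3 of 5 of the centromere and kinetochore (0.62), 4 of 8 of the CDK1 switch (0.62) and 2 of 5 structural genes (0.55). None of the 3 genes listed under cytokinesis was called (median 0.37), but the cytokinetic kinesin Kif23, counted with the kinesins, was. The CDK1 switch was split. Ccnb1, Cdk1, Cdc25c and Ccna2 had differences of 0.83 to 0.97, whereas Ccnb2, Cks1b, Cdc25b and Cks2 had 0.41 or less.

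Kif23 had the largest difference. It was 3.96, 4.16 and 3.45 RPKM in WT and 9.05, 8.83 and 8.11 RPKM in KO cells, a fold change of 1.99 (log2 0.99 ± 0.09, BH adjusted p = 1.78e-08). Ccnb1 was 21, 23.9 and 17.6 RPKM in WT and 44.0, 41.7 and 38.8 RPKM in KO (0.97 ± 0.11, BH adjusted p = 3.72e-07). In each the lowest KO library exceeded the highest WT library by far more than the spread within either group. The kinesin Kif20a, which carries the passenger complex to the midzone, was 17.03, 16.0 and 14.8 RPKM against 32.2, 32.1 and 30.4 RPKM (0.95 ± 0.10, BH adjusted p = 3.09e-07). Aurkb was 37.1, 37.0 and 33.3 RPKM against 68.0, 69.3 and 72.2 RPKM (0.95 ± 0.08, BH adjusted p = 1.31e-08). Cdk1 was 30.2, 28.3 and 25.3 RPKM against 57.0, 48.9 and 47.1 RPKM (0.84 ± 0.08, BH adjusted p = 7.56e-08). Again no library of one genotype reached the range of the other.

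Birc5 (0.81 ± 0.09), Plk1 (0.80 ± 0.10), Bub1 (0.80 ± 0.12), Kif11 (0.62 ± 0.11), Mki67 (0.62 ± 0.16) and Top2a (0.59 ± 0.09) also rose. Mki67 was the least even of these, with 5.10, 3.90 and 2.79 RPKM in KO against 2.41, 1.999 and 2.06 RPKM in WT, and KO replicate 3 stood nearest to the WT libraries. Cdc20 (0.58 ± 0.09, 1.49-fold), Cenpe (0.52 ± 0.13) and Cks1b (0.30 ± 0.05) had an adjusted p under 0.01 but a fold change under 1.5. The smallest differences were those of Cks2 (0.01, 95% interval -0.16 to 0.18), Nusap1 (0.04, -0.23 to 0.31) and Racgap1 (0.17 ± 0.07). Cks2 was 145, 135 and 140 RPKM in WT and 157, 138 and 130 RPKM in KO, so its groups overlapped. When each replicate was left out in turn, 20 of the 29 were called in all 6 fits and the total ran from 23 to 31. Of the lead genes, Mki67 kept its call only without KO replicate 3, Top2a lost it without WT replicate 1, KO replicate 1 or KO replicate 2, and Kif11 without WT replicate 3 or KO replicate 1.

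**Figure D5:**
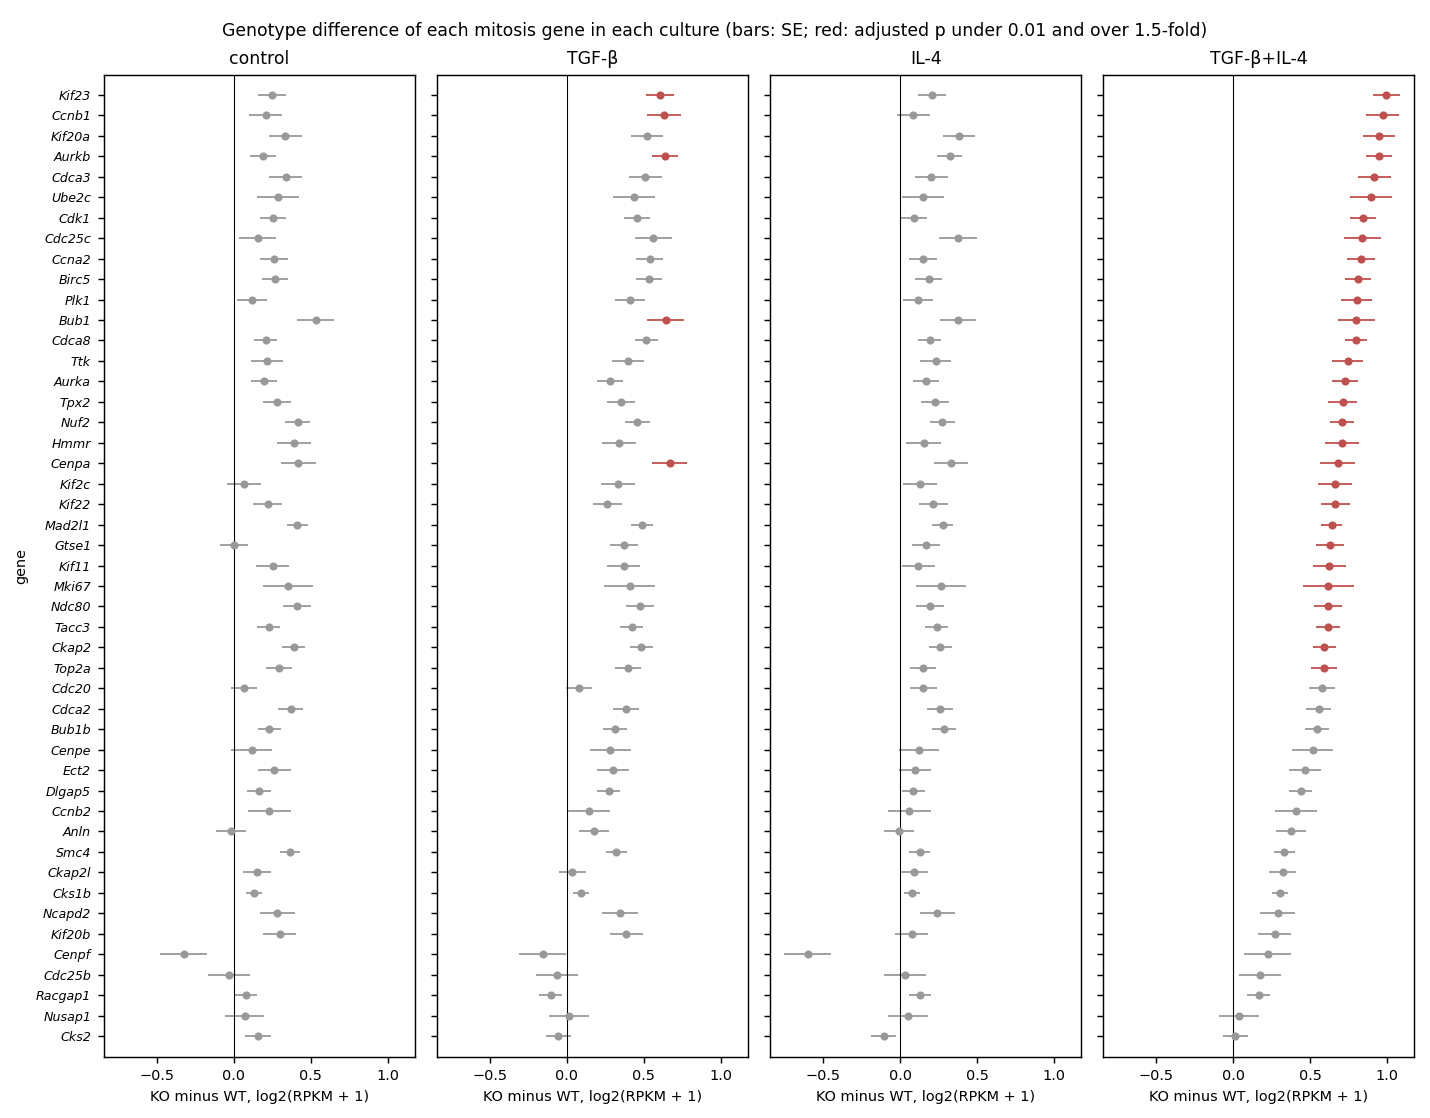
Difference between KO and WT (x axis, log2(RPKM + 1), points with SE bars, n = 3 replicates per genotype) of each of the 47 mitosis genes (y axis, ordered by the TGF-β + IL-4 panel) in each culture, with genes past both thresholds in red. Red points number 29 in TGF-β + IL-4, 5 in TGF-β, and 0 in control and IL-4.

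In TGF-β alone the median was 0.38 and 5 members rose in KO (all genes: 3.03% higher, 5.96% lower): Cenpa, the centromeric histone (0.67 ± 0.11, BH adjusted p = 8.17e-05), Bub1 (0.64 ± 0.12, adjusted p = 0.000229), Aurkb (0.63 ± 0.08, adjusted p = 4.05e-06), and with them Ccnb1 (0.63) and Kif23 (0.60). Aurkb was 48.3, 44.0 and 41.5 RPKM in WT and 73.0, 74.3 and 62.2 RPKM in KO, and Bub1 was 6.56, 5.11 and 6.60 RPKM against 10.5, 10.5 and 9.06 RPKM. In 36 of 47 the KO libraries all lay above the WT libraries (26.1% of all genes). None of the 5 was called in all 6 fits that left out a replicate: 1 member (Aurkb) was called without WT replicate 2, 3 (Aurkb, Bub1 and Cenpa) without KO replicate 2 and 11 without KO replicate 3.

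In control, without added cytokine, the median difference was 0.23 and 35 of 47 had every KO library above every WT library (19.5% of all genes). No member passed both thresholds in limma (all genes: 0.576% higher, 2.07% lower), and 33 had an unadjusted p under 0.05. Bub1 (0.53 ± 0.12, BH adjusted p = 0.00373), Cenpa (0.42 ± 0.11, adjusted p = 0.0134) and the kinetochore gene Nuf2 (0.41 ± 0.08, adjusted p = 0.00115) had the largest differences. Bub1 was called without WT replicate 3 (0.60, adjusted p = 0.00261). Nuf2 was the only member whose 12 KO libraries all exceeded its 12 WT libraries, as 2.05% of all genes did, and the margin was small, from 12.76 RPKM in WT IL-4 replicate 3 to 12.82 RPKM in KO TGF-β + IL-4 replicate 3. In IL-4 the median was 0.15, 16 of 47 had every KO library above every WT library (19.4% of all genes), none was called by limma (0.329% of all genes higher, 2.58% lower), and 20 had an unadjusted p under 0.05. Cenpf pointed the other way. It was 5.94, 4.63 and 5.65 RPKM in WT IL-4 and 3.15, 3.43 and 3.06 RPKM in KO IL-4, without overlap (-0.60 ± 0.15, BH adjusted p = 0.0105), and it was called lower under median-ratio scaling (adjusted p = 0.0099) and with only the compared groups in the fit (adjusted p = 0.00415).

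Some markers of other cells differed between the genotypes. Cd8a and Cd8b1 summed to 24.8 to 26.9 RPKM in WT control and 14.8 to 16.7 RPKM in KO control. In TGF-β they summed to 16.6 to 17.3 RPKM in WT and 14.3 to 15.2 RPKM in KO. In IL-4 the sums were 29.9 to 36.3 RPKM in WT and 26.3 to 27.2 RPKM in KO, also without overlap. In TGF-β + IL-4 they summed to 25.3 to 26.7 RPKM in WT and 26.3 to 28.3 RPKM in KO cells. Cd8a alone was 5.04 to 8.87 RPKM over all WT libraries and 1.14 to 3.85 RPKM over all KO libraries, without overlap. Cd8b1 overlapped, at 11.0 to 30.4 RPKM in WT and 12.8 to 25.1 RPKM in KO. The 4 B cell markers summed to 15.7 to 33.3 RPKM in WT and 14.8 to 26.1 RPKM in KO TGF-β + IL-4 libraries. In control they summed to 14.4 to 22.5 RPKM in WT and 9.07 to 10.5 RPKM in KO, without overlap. In TGF-β the sums were 10.92 to 13.05 RPKM in WT and 7.89 to 10.55 RPKM in KO, again apart, while in IL-4 the genotypes overlapped. The 5 myeloid markers, nearly all from Lyz2, summed to 7.10 to 16.7 RPKM in WT and 2.11 to 4.39 RPKM in KO TGF-β + IL-4 libraries. In control they summed to 3.53 to 6.20 RPKM in WT and 0.232 to 1.70 RPKM in KO, while in TGF-β and in IL-4 the genotypes overlapped. The 3 NK cell markers summed to 1.49 to 6.90 RPKM in WT and 1.98 to 6.45 RPKM in KO libraries, and of the 3 erythroid markers Hbb-b1 was at 0 in all 24, while Hba-a1 reached 21.9 RPKM in WT with a median of 0. The part of such cells in the genotype differences was not tested.

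The change from control to TGF-β + IL-4 differed between the genotypes for 10 of 47 members, tested as an interaction (all genes: 1.71% higher, 3.46% lower). In all 10 the difference was more positive in KO than in WT, the median over the 47 was 0.37, and it was 0.00 over all genes tested. Ccnb1 differed from control by -0.67 ± 0.11 in WT and by 0.09 ± 0.11 in KO (interaction 0.76, BH adjusted p = 0.0013). Aurkb differed by -0.60 ± 0.08 in WT and 0.15 ± 0.08 in KO (0.76, BH adjusted p = 0.000103), and Kif23 by -0.57 ± 0.09 and 0.18 ± 0.09 (0.75, BH adjusted p = 0.000242). The others were Plk1 (0.68), Cdc25c (0.68), Gtse1 (0.62), Kif20a (0.61), Kif2c (0.60), Cdca8 (0.59) and Cdk1 (0.59). Without the filter on low values 7 members were called, with Cdc25c, Kif20a and Kif2c lost, and with only the compared groups 8, with Cdc25c and Kif2c lost. Cdc25c, Kif20a and Kif2c were each called in 1 of the 6 fits that left out a replicate. Aurkb and Kif23 were called whichever replicate was left out, Ccnb1 lost its call without KO replicate 1 (adjusted p = 0.0179) and Plk1 without KO replicate 3 (adjusted p = 0.0128), and 4 members in all were called without WT replicate 3 and 5 each without KO replicate 1 and without KO replicate 3. For TGF-β alone the median interaction was 0.10 and limma called none (all genes: 1.7% higher, 2.53% lower), with 9 at an unadjusted p under 0.05 and Aurkb the highest at 0.44 (BH adjusted p = 0.017).

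Other genes of the cell cycle were read from lists outside the 47. Of 76 other mitosis genes tested, 19 rose in KO against WT in TGF-β + IL-4, where 3.11% of all genes did (median 0.43), among them the checkpoint gene Zwilch (0.97), the mitotic kinase Pbk (0.89), the centromere gene Cenpp (0.80) and the kinetochore gene Ska1 (0.77). Of 45 DNA replication genes 3 rose (median 0.36), which were thymidine kinase Tk1 (1.03), the ribonucleotide reductase subunit Rrm2 (0.78) and the replication initiation factor Mcm10 (0.73). All 45 differences were above 0, and 42 had an unadjusted p under 0.05 by limma. Of the 76 other mitosis genes 69 were above 0 and 61 had such a p, beside 5023 and 5018 of all 9726 genes. In WT TGF-β + IL-4 against IL-4, 7 of the 76 and 3 of the 45 fell, beside 2.92% of all genes. The regulator Foxm1 was 2.18, 2.53 and 2.47 RPKM in WT and 3.79, 3.22 and 2.96 RPKM in KO TGF-β + IL-4, apart from each other but not called (0.35 ± 0.11, BH adjusted p = 0.0111). Mybl2 was 17.99, 16.0 and 18.5 RPKM in WT and 27.3, 24.4 and 24.4 RPKM in KO (0.51 ± 0.20, BH adjusted p = 0.0459), and in WT it fell against IL-4 (-0.88 ± 0.20, BH adjusted p = 0.00173).

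Most members varied together across the libraries. The Pearson correlation of a member with the mean of the others over 24 libraries, which share groups and depth, was highest for Birc5 (0.98), Top2a (0.98) and Tpx2 (0.97), and lowest for Cdc25b (0.12), Cks2 (0.14), Cenpf (0.15), Nusap1 (0.30) and Racgap1 (0.45). Cenpf followed the others within the 12 WT libraries (0.88) more than within the 12 KO libraries (0.34). This was not particular to Cenpf, since Ckap2 had 0.91 and 0.16 and Ect2 had 0.84 and 0.33. Some members went the other way, such as Ncapd2 (0.18 and 0.795) and Racgap1 (0.25 and 0.82). For Cenpf, KO control (4.50, 4.41 and 2.64 RPKM) lay below WT control (4.81, 4.80 and 5.34 RPKM). Cks2 had its highest WT values in TGF-β alone, at 170, 178 and 172 RPKM against 155, 147 and 130 RPKM in control. Cdc25b had its lowest WT and KO means in control, and both the IL-4 and the TGF-β + IL-4 libraries of KO (6.90 to 10.8 RPKM) lay above all 3 KO control libraries (4.87 to 6.05 RPKM).

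Outside the 47, the genes whose level was most like the mean of the members over the 24 libraries included Tyms (0.98), Nup37 (0.97), Traip (0.96), E2f8 (0.96), Kif4 (0.96), Ccne1 (0.96), Orc6 (0.95), Shcbp1 (0.95) and Cdca5 (0.95). The median over 9679 genes was 0.03, that of the DNA replication list was 0.84, and Foxm1 and Mybl2 had 0.86 and 0.67. These genes were chosen for following the members in the same libraries, so their differences between KO and WT in TGF-β + IL-4 are a description only. The difference was 0.74 for Ccne1, cyclin E1, 0.74 for Cdca5, a cohesin regulator, 0.71 for the cell cycle repressor E2f8 and 0.41 for Tyms, thymidylate synthase.

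The starts of these genes were open in every DNase-seq library. A DHS lay within 500 bp of the start of 46 of 47 members in each of the 4 lists (97.9%), compared with 87.4% (control) and 85.9% (TGF-β + IL-4) of all tested genes in WT and 85.7% (control) and 83.1% (TGF-β + IL-4) in KO. The exception was Cdca8, for which a DHS lay at another annotated start, so that 47 of 47 had one when any annotated start was allowed. The median fold enrichment of the members' DHSs, as the peak caller gave it, was 12.2 (control) and 10.6 (TGF-β + IL-4) in WT cells and 9.14 and 8.63 in the same cultures of KO cells, against 9.68, 8.72, 7.49 and 7.17 in that order for all tested genes. These values fell in the same order as the number of DHSs called (44298, 33880, 33665 and 27145). WT TGF-β + IL-4 and KO control were nearly equal in that number but not in enrichment. With 1 library per condition and unknown depth no difference between the lists can be tested. For Cdk1 the enrichment was 11.9, 8.93, 9.20 and 8.28, and for Ccnb1 it was 8.10, 8.42, 8.38 and 6.90, in the same order.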

How the data were processed

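RNA-seq libraries (24, Smart-seq2) and DNase-seq libraries (4) of mouse CD4+ T cells were analysed from the deposited tables. The authors' alignment used Bowtie2 and mm9. The authors discarded poorly mapped reads and repeats at the same place and orientation, and the authors computed the deposited RPKM per gene with edgeR. Discarding repeats compresses the values of abundant, short messages. For DNase-seq the authors called narrow peaks with MACS2 on each library alone, and the deposited lists give for each peak a ratio over local background, the fold enrichment, and a −log10 p and −log10 q. Tool versions are not given in the sources used here. RPKM and peak lists carry no read totals, so depth is known only relative to 1 RNA-seq library.

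The 47 genes and the comparison lists were chosen with earlier results of these data known. Columns of the table were assigned by position because the headings conflict with read counts listed by the study, which were used only to see which genes were at 0. RPKM are not counts, so a count test was not used. Genes with a mean of at least 1 RPKM (9726 of 24089) were fitted as log2(RPKM + 1) with limma 3.58.1 in R 4.3.3 (8 group means in 1 fit, variance trend), with 14 contrasts and Benjamini-Hochberg adjustment over all genes tested. A gene was called when its adjusted p was below 0.01 and it changed by over 1.5-fold, as in the study's own thresholds. On simulated data the script was tested before use. Named in every comparison were 12 lead genes that cover the roles (Mki67, Top2a, Ccnb1, Cdk1, Plk1, Aurkb, Cdc20, Bub1, Cenpe, Kif11, Birc5, Cks1b) and the 3 members with the largest change in each direction, and other members named were chosen after their values were seen.

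Libraries were grouped by genotype and culture. Replicate numbers recur across the cultures of a genotype, but the sources used here do not say that they pair libraries, so the main fit had no block and a fit with the replicate number as a block was an alternative. Promoter windows and sequences are from RefSeq (GRCm38.p6), and DHSs were placed on mm9 gene models of GENCODE vM1. The other alternatives were the headings, a pseudocount of 0.1, no filter, median-ratio scaling, only the compared groups, an adjusted p under 0.05, leaving out each replicate, peaks with a −log10 q of at least 5, a window of 1000 bp and, chosen after seeing the data, any annotated start.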

Additional observations from a re-analysis of the deposited data

Results flagged for a closer look

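The change from control to TGF-β + IL-4 differed between the genotypes, by the interaction term of the limma fit, for 10 mitosis genes. The interaction was 0.76 on the log2 scale for Ccnb1, 0.76 for Aurkb, 0.75 for Kif23, 0.68 for Plk1, 0.68 for Cdc25c, 0.62 for Gtse1, 0.61 for Kif20a, 0.60 for Kif2c, 0.59 for Cdca8 and 0.59 for Cdk1. In each of the 10, TGF-β + IL-4 minus control was below 0 in WT and above 0 in KO, from -0.31 ± 0.11 (SE) in WT and 0.28 ± 0.11 in KO for Kif2c to -0.67 ± 0.11 and 0.09 ± 0.11 for Ccnb1. In KO limma called none of these differences. Cdc25c, Kif20a and Kif2c were not called without the filter on low values (BH adjusted p = 0.0164, 0.0126 and 0.0204 by limma).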

How the results depend on the processing

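With the columns as headed, no member was called for WT TGF-β + IL-4 against control (0), for the same against IL-4 (0), for KO against WT in TGF-β + IL-4 (0) or for the interaction with TGF-β + IL-4 (0). Read so, these values turned sign: Top2a 0.0905, Cdc20 0.0388, Bub1 0.11, Cenpe 0.0729, Kif11 0.0106, Cks1b 0.0834 and Ube2c 0.0215 for WT TGF-β + IL-4 against IL-4, Cks2 -0.20 and Nusap1 -0.20 for KO against WT in TGF-β + IL-4, and Kif20a -0.0427 for the interaction. By position, WT TGF-β + IL-4 against control called 5 with a pseudocount of 0.1 (with Cdc25c and Kif23) and 5 with median-ratio scaling (with Kif23 and Plk1). KO against WT in control called 1 (Bub1) with a pseudocount of 0.1. KO against WT in IL-4 called 1 (Cenpf, lower) each with the replicate block, with median-ratio scaling, with only the groups compared and at an adjusted p under 0.05. The replicate block (consensus correlation 0.1159) changed no other count of members called. After group means were removed, libraries with the same replicate number and genotype correlated between -0.30 and 0.55, and 18 of 24 were most like the other cultures of their own number, which is a hint from the data and not the design.

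Leaving out each replicate, the members called numbered 0 to 4 for WT TGF-β + IL-4 against control, 6 to 18 against IL-4, 0 to 1 for KO against WT in control, 1 to 11 in TGF-β, 23 to 31 in TGF-β + IL-4 and 4 to 9 for the interaction with TGF-β + IL-4. For KO against WT in TGF-β + IL-4, Cks2 then ran from -0.0607 (without KO replicate 1) to 0.0708, turning also without WT replicate 2 (-0.0125), and Nusap1 from -0.0384 (without KO replicate 2) to 0.143, turning also without WT replicate 3 (-0.0332). Of 588 values of named genes under alternatives other than the headings, 510 kept direction and call, 74 kept direction only and 4 turned. The cause of these shifts was not tested. Median-ratio scaling moved the median of all genes by less than 0.1 in every comparison. With 3 libraries per group, SEs of the members ran from 0.05 to 0.16 between groups and from 0.07 to 0.23 for the interactions, so differences of that size were not resolved.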
